A study of Rattus norvegicus with 30 samples.

Results

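The mRNAs of aldosterone synthase (Cyp11b2) and of the type 1 angiotensin II receptors (Agtr1a and Agtr1b) were followed in the adrenal glands of gonadectomized and hormone-replaced rats. These 3 genes were taken by their exact symbols from the 14557 genes that the arrays measured with a probe row of a single symbol, and each of them had 1 such row. Adrenal transcripts of 30 Wistar rats were profiled on Affymetrix Rat Gene 2.1 ST arrays in 6 groups of 5. The rats were 12 weeks old when obtained, before surgery. The OVX + E group was ovariectomized and given 0.5 mg of estradiol per 100 g of body weight by subcutaneous depot injection on day 14, the OVX group was ovariectomized without replacement, and control females were sham operated. The ORX + T group was orchiectomized and given 5 mg of testosterone per 100 g on day 14 in the same way, the ORX group was orchiectomized only, and control males were sham operated. All glands were collected 4 weeks after surgery. RNA came from the entire gland, so cortex, medulla and capsule are mixed in every sample, and fewer cells of a type and less RNA per cell cannot be told apart. The labels call the samples of a group biological replicates.

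Aldosterone is made only in the zona glomerulosa, the thin outer layer of the adrenal cortex, where Cyp11b2 carries out the last steps of its synthesis from deoxycorticosterone. Angiotensin II acts on the glomerulosa cell through the AT1 receptor, which couples to Gq, releases stored calcium and, together with closure of background potassium channels, opens voltage-gated calcium channels. Calcium-dependent kinases and the NR4A nuclear receptors then raise transcription of aldosterone synthase. Rodents carry 2 genes for the AT1 receptor, and in the rat Agtr1b is known for its expression in the adrenal and pituitary, while Agtr1a is the main form in vessels and kidney.

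Cyp11b2 lies on chromosome 7 in a cluster with close relatives, and in the GRCr8 annotation its neighbours on 1 side include Cyp11b1, Cyp11b3 and Cyp11b2l1. A probe row that carried the symbols of Cyp11b1 and Cyp11b3 together was not used, and how far the Cyp11b2 probes also bind mRNA of its relatives is unknown. The receptor genes lie on different chromosomes, 17 for Agtr1a and 2 for Agtr1b. Their upstream regions are shown because the same receptor type is transcribed from 2 unlike starts. The 250 bases before each start (RefSeq, GRCr8, both on the minus strand, chr17:34435433-34435682 for Agtr1a and chr2:104849263-104849512 for Agtr1b) have in capitals a TATA box (TATAAA), GC boxes (GGGCGG) and a single arm of the estrogen response element (GGTCA), each searched on both strands.
Agtr1a: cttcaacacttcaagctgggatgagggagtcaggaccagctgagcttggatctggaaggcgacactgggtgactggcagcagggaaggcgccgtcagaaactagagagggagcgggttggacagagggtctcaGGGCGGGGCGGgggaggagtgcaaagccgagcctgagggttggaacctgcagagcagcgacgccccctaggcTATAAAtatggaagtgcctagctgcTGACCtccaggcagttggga
Agtr1b: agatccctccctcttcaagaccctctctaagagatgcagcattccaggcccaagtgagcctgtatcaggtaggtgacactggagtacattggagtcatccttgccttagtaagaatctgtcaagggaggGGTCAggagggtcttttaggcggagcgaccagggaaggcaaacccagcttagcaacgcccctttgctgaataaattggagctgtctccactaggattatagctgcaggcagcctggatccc
The Agtr1a sequence held TATAAA with its first base at -45, where -1 is the base before the start, overlapping GC boxes at -117 and -112, and the arm GGTCA, read on the other strand as TGACC, at -20. The Agtr1b sequence held GGTCA at -121 and neither TATAAA nor GGGCGG. Of 33469 rat promoters of this length, 12.9% held TATAAA, 30.5% held GGGCGG and 35.4% held GGTCA, so the single arm is common. The full element, GGTCA and TGACC 3 bases apart, was in neither sequence and in 0.0239% of all promoters, and the NR4A site AAAGGTCA, which overlaps the arm, was in neither and in 1.24%. In a global alignment the upstream regions were identical at 166 of 288 aligned positions (57.6%), and GC content was 60.8% for Agtr1a and 52.8% for Agtr1b. The letters alone show neither binding nor its absence.

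The arrays differed in the spread of their values. The SD of log2 signal over all genes was 1.67 to 1.75 on 20 arrays and 1.43 to 1.60 on the other 10, which were 2 arrays each of OVX + E, OVX, ORX + T and ORX and 1 of each control group. These 10 are called narrow below, and results that rest on them are given with and without them. Log2 signals ran from 2.81 to 12.82 over all rows, with array medians of 4.36 to 4.63. Precision is limited by 5 arrays per group, and how many genes passed also moved with the treatment of the narrow arrays. Narrowness followed the replicate number, with 5 of 6 arrays numbered 5, 3 of 6 numbered 3, 2 of 6 numbered 2 and 0 of 6 numbered 1 or 4. A gene rose or fell where limma's adjusted p over all 14557 genes was under 0.05.

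Cyp11b2 was among the brightest genes of every group except OVX + E. Its log2 signal exceeded that of at least 95.4% of genes in each of the 25 rats outside OVX + E. In OVX + E it exceeded between 67.2% and 98.2% of genes, depending on the rat. Agtr1b lay at 80.9% to 93.2% and Agtr1a at 66.4% to 84.3% over all 30 arrays. These ranks describe the probe signals, and a level of one probe against another was not read as a difference in mRNA amount.

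Estradiol replacement came with a lower and far more variable Cyp11b2 signal. The log2 signal in the 5 OVX + E rats, replicates 1 to 5, was 9.77, 8.69, 6.01, 7.96 and 7.18, against 9.70, 9.90, 9.39, 9.75 and 9.25 in OVX rats. In 4 of 5 OVX + E rats it was below every OVX rat, while replicate 1 of OVX + E lay within the OVX range, so the groups overlapped. The means were 7.92 ± 1.43 in OVX + E and 9.60 ± 0.27 in OVX (SD, n = 5 each), which is a log2 change of -1.68 (SE 0.39, 95% CI -2.48 to -0.88). On the linear scale Cyp11b2 was 3.20-fold lower (95% CI 1.84 to 5.57) with estradiol. The SE and both intervals use a spread shared by all groups. The SD of Cyp11b2 was 1.43 in OVX + E, against 0.14 to 0.41 in the other groups. They therefore understate the uncertainty here and in every Cyp11b2 comparison that includes OVX + E. Cyp11b2 fell at an adjusted p of 0.0167 by limma. The exact two-sided permutation test of the 10 values gave p = 0.0397, with 0.00794 the smallest p that 5 against 5 allows. Of the 3 members, Cyp11b2 alone passed in this comparison, where 246 of all genes did (1.69%), 200 of them lower (1.37%) and 46 higher (0.316%). It also met the study's criterion of a fold above 2, as did 131 genes (0.900%), 119 of them lower (0.817%).

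**Figure D1:**
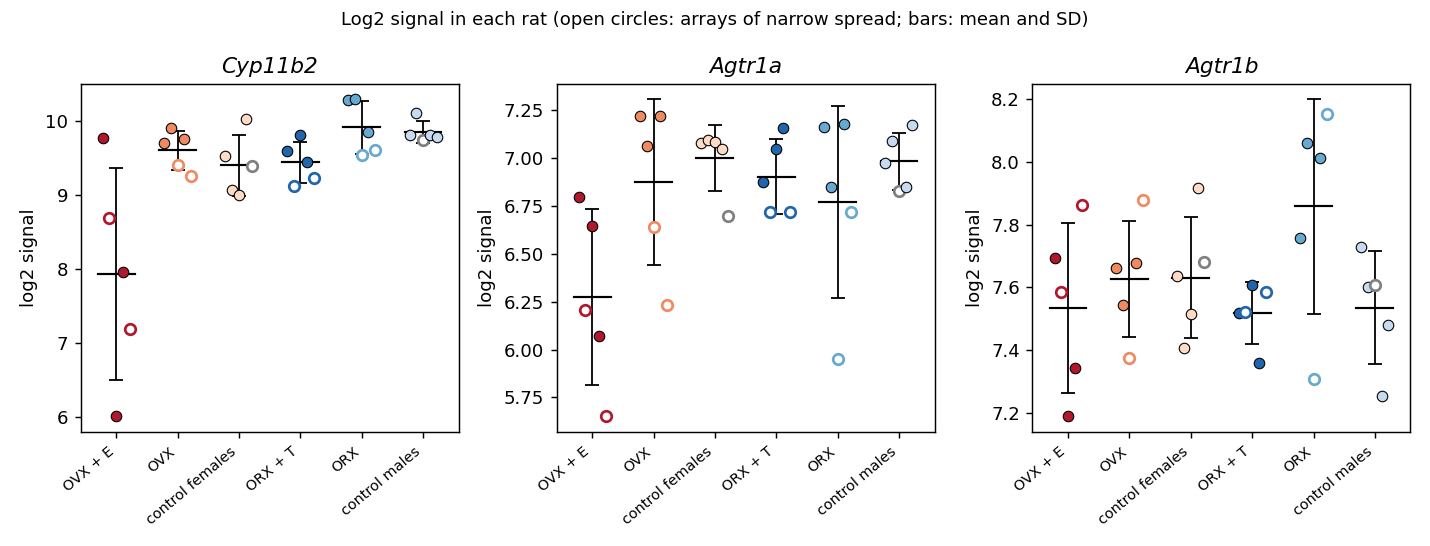
Log2 signal of Cyp11b2, Agtr1a and Agtr1b (vertical axes, separate scales) in each of 30 rats by group, with group mean and SD; open circles are the 10 narrow arrays. The OVX + E rats spread from 6.01 to 9.77 in Cyp11b2, while the other 25 rats lie between 8.996 and 10.28.

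The call rested on the shared spread of all 6 groups and on single rats. The log2 fold change stayed at -1.68 when the fit used females only, but the adjusted p was then 0.195, and with only the 10 arrays compared it was 0.404. Without OVX replicate 2, OVX replicate 4 or OVX + E replicate 5 the adjusted p was 0.0603, 0.0509 and 0.0632. Over 22 alternatives the adjusted p ran from 0.000165 to 0.404, with 17 under 0.05, and the log2 fold change from -2.14 without OVX + E replicate 1 to -1.20 without OVX + E replicate 3. The difference was present among the arrays of both kinds. Among wide arrays Cyp11b2 averaged 7.91 in 3 OVX + E rats and 9.78 in 3 OVX rats, and among narrow arrays 7.94 in 2 OVX + E rats and 9.32 in 2 OVX rats.

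Variation between estradiol-replaced rats was itself a feature of Cyp11b2. From the lowest to the highest OVX + E rat the signal differed 13.5-fold, against 1.56-fold in OVX rats and 2.04-fold in control females. Only 21 of 14557 genes had a larger SD than Cyp11b2 in the OVX + E group, where the median gene had an SD of 0.29. In the OVX group the SD of Cyp11b2 was 0.27 against a median of 0.25, and in control males it was 0.14 against 0.20, below that of most genes. In the remaining groups it was above the median gene, at 0.41 against 0.24 in control females, 0.36 against 0.27 in ORX and 0.28 against 0.20 in ORX + T.

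Set against sham-operated females, the same rats were lower by a similar amount without passing the test. Control females had 9.51, 9.07, 8.996, 10.02 and 9.38, averaging 9.40 ± 0.41 (SD, n = 5), against the OVX + E mean of 7.92. In 4 of 5 OVX + E rats the signal was below every control female. The log2 fold change was -1.48 (SE 0.39, 95% CI -2.27 to -0.68), with an adjusted p of 0.169 by limma and an exact permutation p of 0.0635. The SE and interval of Cyp11b2 again use the spread shared by all groups, which is too small for OVX + E. In this comparison 34 genes passed (0.234%), none of the 3 members among them, although 2 members, Cyp11b2 and Agtr1a, had an unadjusted p under 0.05. The adjusted p of Cyp11b2 was 0.00426 without OVX + E replicate 1, 0.0492 with array weights and 0.0396 with array SD as a covariate, and its range over 22 alternatives was 0.00426 to 0.993.

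Ovariectomy alone left Cyp11b2 without a detectable difference. The OVX mean of 9.60 stood against 9.40 in control females, a log2 change of 0.20 (SE 0.39, 95% CI -0.60 to 1.001), and no OVX rat lay outside the range of the controls. No member passed among the 24 genes that did (0.165%), and none had an unadjusted p under 0.05.

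In each male group the Cyp11b2 signal varied less between rats than in OVX + E. ORX + T rats had 9.59, 9.11, 9.81, 9.44 and 9.22, against 10.27, 10.28, 9.53, 9.84 and 9.61 in ORX rats and 9.81, 10.10, 9.74, 9.81 and 9.77 in control males. The ORX + T mean of 9.43 ± 0.28 was below the ORX mean of 9.91 ± 0.36 and the control mean of 9.85 ± 0.14 (SD, n = 5 each). With testosterone the log2 fold change was -0.47 against ORX (SE 0.39, 95% CI -1.27 to 0.33) and -0.41 against control males (95% CI -1.21 to 0.39). Against ORX the adjusted p was 0.991 by limma and the exact permutation p 0.0556. Against control males the adjusted p was 0.9997 by limma and the exact permutation p 0.0317, with 4 of 5 ORX + T rats below every control male. The SE of 0.39 is the same in every Cyp11b2 comparison of 2 groups and takes in the OVX + E SD of 1.43. These limma tests of male groups could therefore miss differences of this size, while those that include OVX + E understate its spread. Over 22 alternatives, fits on males only among them, the limma adjusted p was never below 0.283 against ORX or 0.343 against control males. Against control males 137 genes passed (0.941%) and against ORX 299 did (2.05%), with no member among them in either. Orchiectomy alone gave a log2 change of 0.06 (95% CI -0.74 to 0.86), and 8 genes passed (0.0550%), again without a member. That count was 149 without narrow arrays and 576 with array weights.

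Between control females and control males the Cyp11b2 difference did not pass the test. Its mean was 9.40 in control females and 9.85 in control males, a log2 change of -0.45 (SE 0.39, 95% CI -1.25 to 0.35), with an exact permutation p of 0.0476 and an adjusted p of 0.99999 by limma. In 4 of 5 control females the signal was below every control male. Of all genes 63 passed here (0.433%), none of the 3 members. In order of mean Cyp11b2 ran ORX, control males, OVX, ORX + T, control females and OVX + E, and of the neighbours in this order only control males and OVX, and control females and OVX + E, lay further apart than their pooled SD.

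The response to estradiol in females was also set against the response to testosterone in males. The Cyp11b2 SE and interval again use the spread shared by all groups, which is too small for OVX + E. For Cyp11b2 the female log2 fold change minus the male one was -1.20 (SE 0.55, 95% CI -2.33 to -0.07), with an unadjusted p of 0.0377 and an adjusted p of 0.565 by limma. For Agtr1a it was -0.73 (SE 0.30, 95% CI -1.35 to -0.11), unadjusted p 0.0229 and adjusted p 0.449. For Agtr1b it was 0.25 (95% CI -0.16 to 0.66). In this test of the difference 229 genes passed (1.57%), no member among them, so a response confined to 1 sex was not shown for any member. The responses to gonadectomy differed between sexes at an adjusted p under 0.05 for 1 gene (0.00687%), which was no member, and no member had an unadjusted p under 0.05 there.

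**Figure D2:**
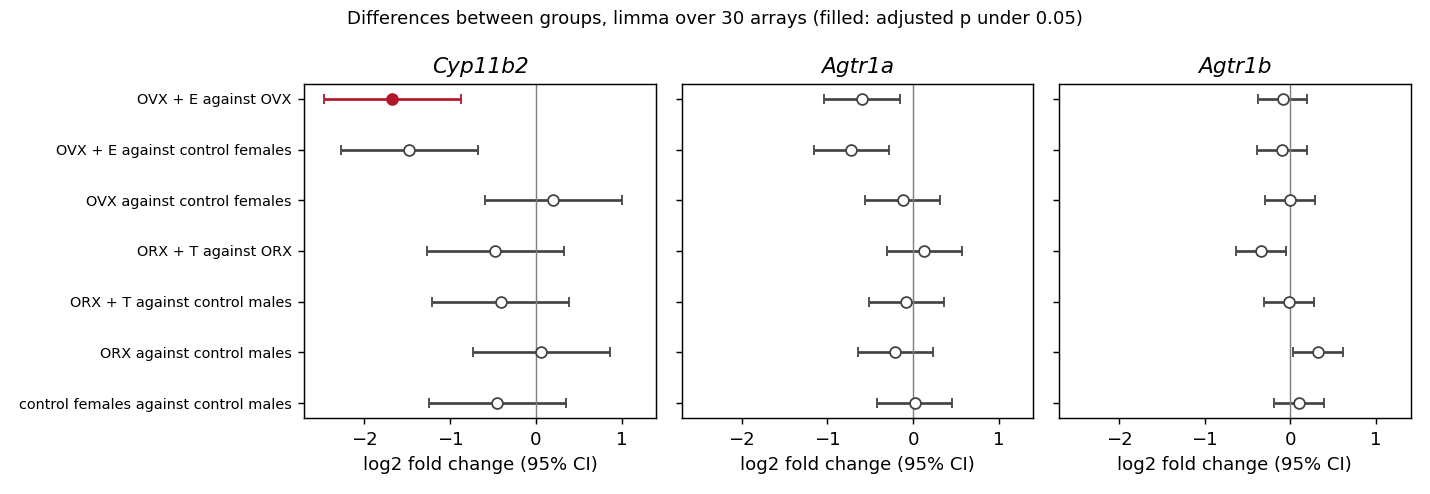
Log2 fold change with 95% CI (horizontal axis) of each member in 7 comparisons, first group over second, from limma over 30 arrays; the filled point passed an adjusted p of 0.05. Cyp11b2 in OVX + E against OVX, at -1.68, is the single filled point among 21. The Cyp11b2 intervals that include OVX + E use the spread shared by all groups and understate the uncertainty.

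Agtr1a, the AT1 receptor of vessels and kidney in the rat, was also lowest in OVX + E. Its log2 signal was 6.80, 6.21, 6.65, 6.07 and 5.65 in OVX + E rats, against 7.22, 7.06, 6.64, 7.22 and 6.23 in OVX rats and 7.08, 7.09, 7.08, 7.05 and 6.69 in control females. In 4 of 5 OVX + E rats the signal was below every control female, and in 3 of 5 below every OVX rat. The means were 6.28 ± 0.46 in OVX + E, 6.87 ± 0.43 in OVX and 6.998 ± 0.17 in control females (SD, n = 5 each).

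The log2 fold change of Agtr1a was -0.60 against OVX (SE 0.21, 95% CI -1.04 to -0.16), with an adjusted p of 0.217 by limma and an exact permutation p of 0.0635. Against control females it was -0.72 (SE 0.21, 95% CI -1.16 to -0.28), with an adjusted p of 0.332 by limma and an exact permutation p of 0.0159. Neither passed. Array spread moved with this gene, since over the 30 arrays Agtr1a correlated with array SD at r = 0.73, against 0.28 for Cyp11b2 and -0.05 for Agtr1b.

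Among wide arrays alone the Agtr1a values separated. The 3 OVX + E rats lay at 6.07 to 6.80, against 7.06 to 7.22 in 3 OVX rats and 7.05 to 7.09 in 4 control females. Without the narrow arrays the log2 fold change was -0.66 against OVX (adjusted p 0.00576) and -0.57 against control females (adjusted p 0.0465). With array SD as a covariate the adjusted p was 0.0211 against OVX and 0.0214 against control females, and with array weights it was 0.00800 against OVX and 0.0399 against control females. Quantile normalization gave an adjusted p of 0.0326 against OVX. Over all 22 alternatives the adjusted p ran from 0.00576 to 0.657 against OVX and from 0.0214 to 0.932 against control females, and every one of them kept a negative log2 fold change. Among narrow arrays the means were 5.93 in 2 OVX + E rats and 6.43 in 2 OVX rats.

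In the other comparisons Agtr1a stayed within a small range. ORX + T rats had 6.88, 6.71, 7.04, 7.15 and 6.72, against 7.16, 6.85, 5.95, 7.17 and 6.72 in ORX rats and 6.97, 7.09, 6.83, 6.85 and 7.17 in control males. The lowest of these, ORX replicate 3, was on a narrow array. On the log2 scale the fold change was 0.13 in ORX + T against ORX (95% CI -0.31 to 0.57), -0.21 in ORX against control males (95% CI -0.65 to 0.23) and -0.12 in OVX against control females (95% CI -0.56 to 0.31). These 3 changed sign without the narrow arrays, to -0.04, 0.04 and 0.09, and therefore carry no direction. In order of mean only ORX and OVX + E, the lowest pair, lay further apart than their pooled SD.

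Agtr1b, the AT1 receptor gene of adrenal and pituitary, gave no detectable difference with estradiol. Its log2 signal was 7.69, 7.59, 7.19, 7.34 and 7.86 in OVX + E rats, against 7.66, 7.54, 7.37, 7.68 and 7.88 in OVX rats and 7.64, 7.41, 7.52, 7.92 and 7.68 in control females. The groups overlapped, although 2 of 5 OVX + E rats were below every OVX rat and every control female. Fold changes on the log2 scale were -0.09 against OVX (SE 0.14, 95% CI -0.38 to 0.20) and -0.10 against control females (95% CI -0.39 to 0.19). Both turned positive after quantile normalization, at 0.03 and 0.08.

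The highest Agtr1b values were in ORX rats. ORX rats had 7.76, 8.06, 7.31, 8.01 and 8.15, with 4 of 5 above every control male, which had 7.73, 7.60, 7.61, 7.25 and 7.48. ORX + T rats had 7.52, 7.52, 7.61, 7.36 and 7.58, the narrowest group, and all were below the ORX mean of 7.86. This gave a log2 fold change of 0.32 in ORX against control males (SE 0.14, 95% CI 0.03 to 0.61, adjusted p 0.980 by limma, exact permutation p 0.103) and -0.34 in ORX + T against ORX (SE 0.14, 95% CI -0.63 to -0.05, adjusted p 0.441, exact permutation p 0.0873). Neither passed, and each was the only member with an unadjusted p under 0.05 in its comparison. These comparisons share the ORX rats. With array weights the adjusted p was 0.00925 and 0.00684, while over 22 alternatives it ran from 0.00925 to 0.99999 for ORX against control males and from 0.00684 to 0.816 for ORX + T against ORX. No neighbouring groups in the order of Agtr1b means differed by more than their pooled SD.

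Over the 30 rats Cyp11b2 and Agtr1a varied together, and the other pairs less so. Agtr1a did so with many genes. Its median Pearson's r over the 7277 genes of above-median mean signal was 0.53, against -0.02 for Agtr1b. The 3 pairs were tested with 100000 permutations each. Pearson's r was 0.57 for Cyp11b2 and Agtr1a (p = 0.00317, adjusted 0.00951; Spearman's rho 0.55, p = 0.00195, adjusted 0.00585). Without the 2 rats farthest from the Cyp11b2 median r was 0.59, and it was 0.57 among 20 wide and 0.72 among 10 narrow arrays. On deviations from group means it was 0.31 (permutation p = 0.255, adjusted 0.382), or 0.53 without the 2 farthest rats, 0.12 among wide and 0.55 among narrow arrays, with rho 0.41 (permutation p = 0.0643, adjusted 0.193). A relation between rats of 1 group therefore did not pass, and its size depended on which rats were included. Cyp11b2 and Agtr1b gave r = 0.36 (p = 0.0512, adjusted 0.0768; rho 0.43, p = 0.0180, adjusted 0.0271), with 0.43 without the 2 farthest rats, 0.63 among wide and -0.21 among narrow arrays, so this relation did not hold within both kinds of array. The receptor genes gave r = 0.07 (p = 0.712, adjusted 0.712; rho 0.14, p = 0.467, adjusted 0.467), and 0.11 without the 2 farthest rats.

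The genes most like each member were taken by Pearson's r over 30 arrays among the 7277 genes of above-median mean signal, as a description. For Cyp11b2 they were Lrrc55, an auxiliary subunit of BK potassium channels (r = 0.79, rho 0.81), Far2, a fatty acyl-CoA reductase (r = 0.77, rho 0.78), Vsnl1, a calcium sensor enriched in the human zona glomerulosa (r = 0.77, rho 0.76), Igfbp3, an IGF binding protein (r = 0.76, rho 0.72), and Sstr2, a somatostatin receptor (r = 0.73, rho 0.72). Their OVX + E means minus OVX means were -0.41, -1.31, -0.84, -1.12 and -1.72 in log2 signal, which follows from choosing them for likeness to a gene that is low in OVX + E. After quantile normalization 3 of the 5 were still among the closest 5, with Vsnl1 in first place, and on deviations from group means 1 of the 5 was, Lrrc55.

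The closest genes separated at the rats that departed most. They were chosen for likeness to Cyp11b2 over these same rats, so their agreement with it, rat by rat or by group, follows in part from the choice. Vsnl1 was 7.64, 6.45, 6.51, 6.63 and 5.39 in OVX + E rats, against 7.88, 7.58, 6.83, 7.66 and 6.85 in OVX rats. OVX + E replicate 1 was thus near the OVX values in both Vsnl1 and Cyp11b2. Replicate 3, by far the lowest in Cyp11b2 at 6.01, was not the lowest of its group in Vsnl1 and was second highest in Agtr1a. Sstr2 separated the groups fully, with 5.36, 5.12, 4.85, 4.99 and 5.41 in OVX + E rats, against 7.29, 7.28, 6.61, 6.85 and 6.28 in OVX rats.

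**Figure D3:**
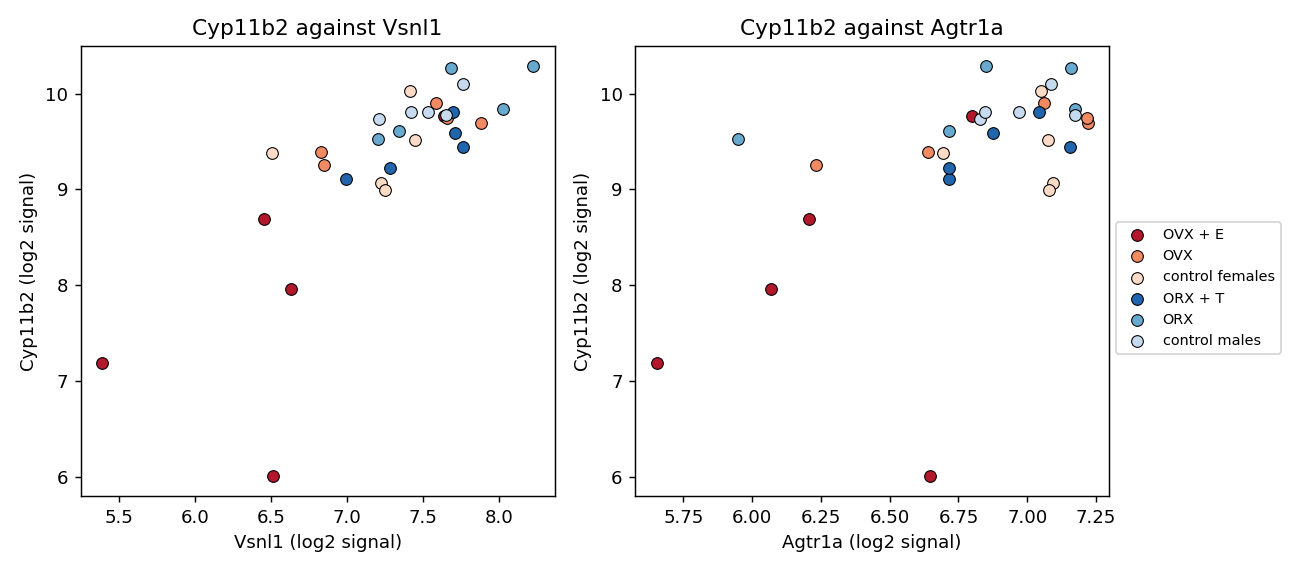
Log2 signal of Cyp11b2 (vertical axis) against that of Vsnl1 and of Agtr1a (horizontal axes), 1 point per rat, coloured by group. The OVX + E rats except replicate 1 fall below the other groups, and replicate 3, at 6.01 in Cyp11b2, lies away from the remaining points in both panels.

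For Agtr1a the closest genes were Cd34, a surface sialomucin of endothelial and progenitor cells (r = 0.88), Ppp1r15b, a regulatory subunit of eIF2 alpha phosphatase (r = 0.85), Sdc2, a cell surface proteoglycan (r = 0.84), Letm1, a mitochondrial inner membrane protein (r = 0.84), and Chd1, a chromatin remodeler (r = 0.83). The median r of Agtr1a over all 7277 genes was already 0.53, against 0.16 for Cyp11b2 and -0.02 for Agtr1b, and among the wide arrays alone 0 of its closest 5 were shared. For Agtr1b the closest were Gpr183, Epsti1, H2ac12, Vasn and Tcf7, with r between 0.59 and 0.64, and 1 of them stayed among the closest 5 after quantile normalization.

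The genes around the receptor were read from lists of the pathway. These lists were chosen with earlier results of these data known. Counts of list genes beside the share of all genes are therefore descriptions and test no enrichment. Of 17 listed genes that make, cleave or bind angiotensin peptides 12 were measured, and 0 passed in any of the 9 comparisons by limma; at an unadjusted p under 0.05 the count was 0 or 1 in each of the 6 that involve surgery or replacement within a sex. After quantile normalization 1 rose in OVX + E against OVX, 1 rose against control females, 1 fell in ORX + T against control males and 2 fell against ORX, and 2 passed upward in the sex difference of replacement; without narrow arrays 1 fell in each ORX + T comparison. In OVX + E against OVX their median log2 fold change was 0.03, against 0.02 for all genes. Agtr2, the type 2 receptor, abundant in the adrenal medulla, was 7.996, 7.17, 8.05, 7.61 and 6.58 in OVX + E rats, against 7.65, 7.76, 6.88, 7.75 and 7.14 in OVX rats, a log2 change of 0.05 (SE 0.28). Anpep, which trims angiotensin III, had the lowest p of the list at 0.76 (SE 0.39, adjusted p 0.518).

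Of 29 listed genes of AT1 receptor signalling 17 were measured, and 2 of them fell in OVX + E against OVX, where 1.37% of all genes did. The count was 4 after quantile normalization and 3 without narrow arrays, settings in which 1240 and 1119 of all genes passed. Nr4a2, a nuclear receptor that binds the human CYP11B2 promoter, was 8.73, 7.87, 7.58, 8.81 and 8.10 in OVX + E rats, against 10.51, 10.52, 10.19, 10.16 and 10.19 in OVX rats. Every OVX + E rat was below every OVX rat. Nr4a2 fell by a log2 difference of -2.10 (SE 0.28, adjusted p 3.01e-05). Control females averaged 9.45 ± 0.40 in Nr4a2, between the means of OVX (10.31) and OVX + E (8.22). In OVX + E against control females 0 of the 17 passed, where 0.234% of all genes did. There 2 of the 17 fell after quantile normalization and 1 without narrow arrays. Rgs2, which shortens Gq signals, fell with a log2 change of -1.33 (SE 0.35, adjusted p 0.0451), with means of 8.44 ± 0.53 in OVX + E and 9.78 ± 0.36 in OVX. Nr4a1, the relative of Nr4a2, had -1.18 (SE 0.34, adjusted p 0.0768), with means of 8.97 ± 0.49 in OVX + E and 10.15 ± 0.24 in OVX. The median of the 17 was -0.17, against 0.02 for all genes, and 13 of 17 were below 0, against 44.6% of all genes. This lean was not particular to the list. Below 0 were also 7 of 8 genes of corticoid synthesis, 10 of 13 other inputs and targets and 8 of 8 chromaffin markers. Of the angiotensin list 5 of 12 were below 0, and of membrane potential and calcium entry 3 of 6. Nr4a2 and Rgs2 also passed after quantile normalization and without the narrow arrays, where Nr4a1 passed as well.

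The same 3 genes were higher in control females than in control males. They were the 3 of 17 that passed there, where 0.433% of all genes did, a description only, since the list was chosen with earlier results known. Nr4a1 averaged 9.77 ± 0.21 in control females and 8.15 ± 0.82 in control males, a log2 change of 1.62 (SE 0.34, adjusted p 0.0179). Rgs2 rose by 1.69 (SE 0.35, adjusted p 0.0178) and Nr4a2 by 1.21 (SE 0.28, adjusted p 0.0499) on the same log2 scale. Control female and control male Cyp11b2 means were 9.40 and 9.85, a difference that did not pass. Whether these genes bear on Cyp11b2 was not tested. Nr4a2 also differed in its response to replacement between the sexes, by -2.96 (SE 0.40, adjusted p 5.84e-05), with ORX + T rats at 9.02 ± 0.28 and ORX rats at 8.16 ± 0.62.

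**Figure D4:**
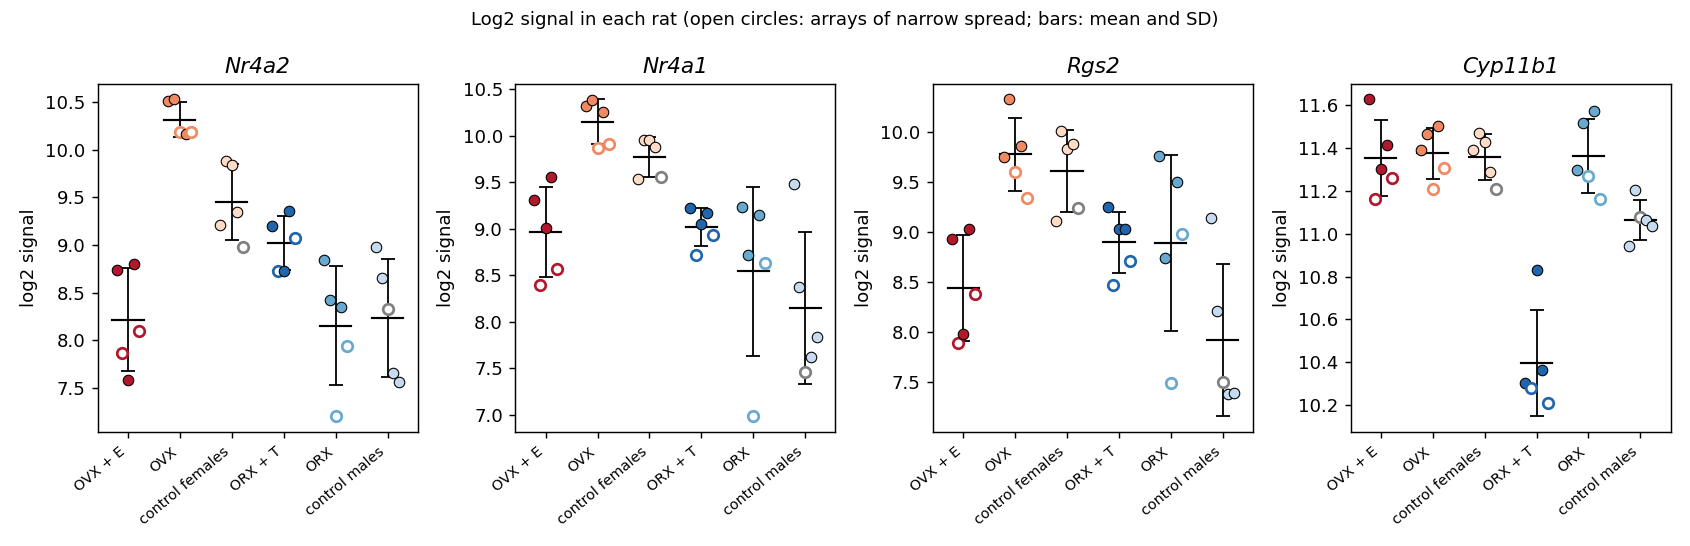
Log2 signal (vertical axes, separate scales) of Nr4a2, Nr4a1, Rgs2 and Cyp11b1 in each rat by group, with group mean and SD; open circles are narrow arrays. Nr4a2 of OVX + E rats lies at 7.58 to 8.81, below all OVX rats, while Cyp11b1 is low in ORX + T rats alone, at 10.21 to 10.83.

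Other parts of the pathway changed with testosterone. Cyp11b2 was also lower in ORX + T than in ORX, with a log2 fold change of -0.47 that did not pass. Kcnk3, the TASK-1 background potassium channel that holds the glomerulosa cell at a negative potential, fell in ORX + T against ORX with a log2 change of -1.18 (SE 0.23, adjusted p 0.00286), with means of 8.79 ± 0.41 in ORX + T and 9.97 ± 0.31 in ORX. Atp1b1, the beta subunit of the sodium pump, rose by 0.54 (SE 0.11, adjusted p 0.00557). These were 2 of 6 measured genes of membrane potential and calcium entry, in a comparison where 2.05% of all genes passed. Both after quantile normalization and without narrow arrays 1 of the 6 rose and 3 fell, settings in which 1070 and 973 of all genes passed. In OVX + E against OVX none of the 6 passed, although Kcnk3 and the TASK-3 gene Kcnk9 had unadjusted p under 0.05, with log2 fold changes of -0.67 (SE 0.23) and -0.53 (SE 0.22). That count of 0 became 1 up and 2 down after quantile normalization and 2 down without narrow arrays. Prkd1, a protein kinase that angiotensin II activates, rose by 0.66 in ORX + T against ORX (SE 0.14, adjusted p 0.00490) and by 0.75 against control males (SE 0.14, adjusted p 0.00262). Its signal was dim, with means of 5.51 in ORX + T, 4.86 in ORX and 4.76 in control males, near the array medians of 4.36 to 4.63. Prkd1 was the 1 of 17 measured genes of AT1 receptor signalling that passed in each of these comparisons, where 2.05% and 0.941% of all genes did.

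Cyp11b1, the 11-beta-hydroxylase of corticosterone synthesis and the close relative of Cyp11b2, gave no detectable difference with estradiol and fell with testosterone. It was 11.63, 11.16, 11.30, 11.42 and 11.26 in OVX + E rats, against 11.39, 11.47, 11.21, 11.50 and 11.31 in OVX rats, a log2 change of -0.02 (SE 0.11, 95% CI -0.24 to 0.20). In ORX + T rats it was 10.30, 10.28, 10.83, 10.36 and 10.21, against 11.30, 11.52, 11.27, 11.57 and 11.16 in ORX rats. Every ORX + T rat was below every ORX rat, and Cyp11b1 fell, at -0.97 (SE 0.11, adjusted p 7.24e-07). Its response to replacement differed between the sexes by 0.94 (SE 0.15, adjusted p 0.000437). Fdx1, which carries electrons to both enzymes, fell in ORX + T against ORX, at -0.60 (SE 0.09, adjusted p 0.000172). Of 8 measured genes of corticoid synthesis these were the 2 that passed there, where 2.05% of all genes did. Both after quantile normalization and without narrow arrays 3 of the 8 fell. In OVX + E against OVX 0 of 8 passed, with 1 at an unadjusted p under 0.05. In that comparison 1 rose and 1 fell after quantile normalization, and 1 fell without narrow arrays.

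Among 13 measured genes of other inputs and targets 2 passed in ORX + T against ORX, where 2.05% of all genes did. Mc2r, the ACTH receptor, rose by 0.996 (SE 0.17, adjusted p 0.000496), and Hsd11b2, which inactivates corticosterone, fell, at -0.75 (SE 0.20, adjusted p 0.0445). After quantile normalization 1 of the 13 rose and 2 fell there, and without narrow arrays 1 rose and 1 fell. None of the 13 passed in OVX + E against OVX, where 2 had an unadjusted p under 0.05 and 1 rose after quantile normalization.

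Markers of adrenal cell types were read beside the lower Cyp11b2 of OVX + E rats. Of 7 measured zona glomerulosa markers 0 passed by limma in OVX + E against OVX and 1, Vsnl1, had an unadjusted p under 0.05 (log2 fold change -0.84, adjusted p 0.191). Of the 7, 6 were below 0, against 44.6% of all genes, with a median log2 fold change of -0.12. After quantile normalization 1 of the 7 fell, and 1 without narrow arrays. Their level, taken as the mean log2 signal of the list, was 5.90 to 6.57 in OVX + E rats and 6.15 to 6.76 in OVX rats, and Rgs4, which shortens Gq signals like Rgs2, differed by -0.03 (SE 0.17). Wnt4 averaged 5.64 in OVX + E rats and 5.97 in OVX rats, and Ccn3 6.24 and 6.14. The listed markers Shh and Oprk1 were dim, with means of 4.30 and 4.06 in OVX + E rats and 4.41 and 4.07 in OVX rats, at or below the median of the arrays. Dab2 was listed but not measured. Of 5 zona fasciculata markers 0 passed, or 1 upward after quantile normalization, with list levels of 8.84 to 9.31 in OVX + E rats and 8.93 to 9.24 in OVX rats. Of 8 chromaffin markers 0 passed, 3 had an unadjusted p under 0.05 and 8 were below 0, against 44.6% of all genes. Their list levels were 7.06 to 7.88 in OVX + E rats and 7.62 to 8.22 in OVX rats. After quantile normalization 2 of the 8 fell and without narrow arrays 1 did. Against control females 0 of 8 chromaffin markers passed, while 7 had an unadjusted p under 0.05 and the median log2 fold change was -0.49. Of 8 capsule, 5 endothelium, 2 smooth muscle and 4 macrophage markers 0 passed against OVX, with median log2 fold changes of -0.26, -0.43, -0.59 and -0.39. Without narrow arrays 1 of 8 capsule, 3 of 5 endothelium, 1 of 2 smooth muscle and 2 of 4 macrophage markers fell. After quantile normalization 1 endothelium, 1 smooth muscle and 1 macrophage marker fell and 0 capsule markers did. The part of gland composition in the Cyp11b2 difference was not tested.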

How the data were processed

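Total RNA from entire adrenals of 30 rats, 1 per array, was hybridised to Affymetrix Rat Gene 2.1 ST arrays. The deposited values are log2 signals that the authors summarised with RMA from the affy package, per the labels; the genome build behind the probes is not given in the sources used here. RMA equalises arrays, yet 10 of 30 kept a narrower spread. Of 36685 probe rows, 14824 carried 1 gene symbol, 829 several and 21032 none. The brightest row per gene was kept (14557 genes). Groups were compared with limma 3.58.1 in R 4.3.3, the moderated test with FDR correction that the study used, fitting each group mean on all 30 arrays, with Benjamini-Hochberg adjustment over all genes within a comparison. Members were also compared by exact two-sided permutation (SciPy 1.17.1, 21 tests, not adjusted). The fit was tested on simulated data. Members and lists were chosen with earlier results of these data known. The named genes were the 3 members, the 5 genes most correlated with each, list genes that passed and, in lists without one, those of lowest p; Agtr2 and other genes given for comparison were named after their values were seen. The lists covered angiotensin peptides and receptors, AT1 receptor signalling, membrane potential and calcium entry, corticoid synthesis, other inputs and targets, 7 cell types and the clock in both phases. Alternatives were other sample sets, variance models, gene filters, normalizations, a replicate block and leaving out each array. Replicate numbers were not taken to pair the rats, since the labels give no shared origin and the deviations of same-numbered rats correlated above 0.1 in 48 of 75 pairs (range -0.76 to 0.87), not in all; the narrow arrays nevertheless followed the number.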

Additional observations from a re-analysis of the deposited data

Results flagged for a closer look

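In control males, Cyp11b2 of replicate 2 stood apart from the other 4 rats at a log2 signal of 10.098, the next being 9.81. In control females, Agtr1a of replicate 5 was 6.69, the next lowest being 7.05, and that array was narrow. These were the 2 values set apart by Dixon's test among 18 group and gene combinations, of which chance sets apart about 1 in 20. The wide OVX + E spread of Cyp11b2 was not set apart by this test, since the 5 rats were spread evenly.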

How the results depend on the processing

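Cyp11b2 in OVX + E against OVX (-1.68) kept its direction under all 22 alternatives, but did not pass with females only (-1.68) or the 10 arrays alone (-1.68), nor without OVX replicate 2 or 4 or OVX + E replicate 5 (leave-one-out range -2.14 to -1.20). With the replicate block it was -1.68 (adjusted p 0.00701), and the block changed no other call of a member. Against control females Cyp11b2 passed with array weights (-1.55), array SD as a covariate (-1.39) and without OVX + E replicate 1 (range -1.94 to -0.997). Agtr1a passed in OVX + E against OVX with array weights (-0.62), quantile normalization (-0.52), array SD as a covariate (-0.46) and no narrow arrays (-0.66), and against control females with weights (-0.61), the covariate (-0.57) and no narrow arrays (-0.57). Agtr1b passed with array weights in ORX against control males (0.41) and ORX + T against ORX (-0.40). The correlation of Cyp11b2 with Agtr1b was 0.63 without narrow arrays. The causes were not tested.

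Differences near 0 changed sign. With array weights Agtr1a became 0.061 in ORX against control males, -0.081 in ORX + T against ORX, 0.016 in OVX against control females and -0.045 in the sex difference of the gonadectomy response, and Agtr1b 0.0099 in ORX + T against control males and 0.064 in OVX against control females. Without narrow arrays Agtr1a became 0.042, -0.036 and 0.092 in the first 3 of these and 0.0054 in ORX + T against control males, and Agtr1b 0.0098 in OVX against control females. After quantile normalization Agtr1b became 0.012 in ORX + T against control males, 0.055 in OVX against control females, 0.082 in OVX + E against control females and 0.026 in OVX + E against OVX, and Agtr1a -0.011 in control females against control males. Median centring gave -0.027 for Agtr1a there and 0.011 for Agtr1b in OVX against control females. Leave-one-out ranges that crossed 0 were, for Cyp11b2, -0.032 to 0.16 in ORX against control males. For Agtr1a they were -0.074 to 0.23 in ORX + T against ORX, -0.21 to 0.036 in OVX against control females, -0.021 to 0.093 in control females against control males and -0.12 to 0.25 in the gonadectomy response. For Agtr1b they were -0.087 to 0.032 in ORX + T against control males and -0.066 to 0.068 in OVX against control females.

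Counts of all genes that passed rose with array weights, quantile normalization, the covariate and the loss of narrow arrays, the cause not tested. In OVX + E against OVX the 246 became 1065, 1240, 2126 and 1119 in that order, and 122 with the 10 arrays alone. Over the same 4 settings the 8 of ORX became 149 to 576, the 137 of ORX + T against control males 561 to 883, the 299 against ORX 973 to 1448, the 24 of OVX 254 to 536, the 34 of OVX + E against control females 113 to 306, and the 63 between controls 338 to 933. The 229 of the replacement difference became 626 to 1383 and the 1 of the gonadectomy difference 17 to 119. Each member had 1 probe row, so no other row could be tried.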

Other observations

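Clock genes changed in several comparisons, and a link with Cyp11b2 was not tested. In OVX + E against OVX, Nfil3, a repressor of the clock output, fell with a log2 change of -1.82 (SE 0.19; limma, adjusted p 9.41e-07), and Per1 fell too, at -1.49 (SE 0.29, adjusted p 0.00330). They were 1 of 5 measured clock genes of opposite phase to Dbp and 1 of 4 in phase with it, where 1.69% of all genes passed. Dbp itself had 0.32 (SE 0.17, adjusted p 0.557). Against control females Dbp rose by 1.98 (SE 0.17, adjusted p 9.84e-08) in OVX + E and by 1.66 (SE 0.17, adjusted p 4.66e-06) in OVX. Dbp was also lower in control females than in control males, at -1.30 (SE 0.17, adjusted p 0.000240). In ORX + T against control males, where 0.941% of all genes passed, 3 of 4 genes in phase with Dbp rose and 3 of 5 of opposite phase fell. The median log2 fold changes of these lists were 1.21 and -0.91. Dbp averaged 10.15 in ORX + T, 10.01 in ORX and 8.63 in control males, and Nfil3 averaged 6.30 in ORX + T and 7.28 in ORX.

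In ORX + T rats, whose Cyp11b1 was low, 2 of 8 capsule and fibroblast markers rose against ORX, a comparison in which 2.05% of all genes passed in either direction. Without narrow arrays 4 of 8 rose and 973 of all genes passed. Postn, a matrix protein, rose by 0.78 (SE 0.15, adjusted p 0.00200) and Dcn, a small proteoglycan, by 0.38 (SE 0.07, adjusted p 0.00155).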
